A study of Arabidopsis thaliana with 8 samples.

Results

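Glucosinolates are sulfur-containing defence compounds of the mustard family that are harmless until an enzyme removes their glucose. Myrosinases do this when tissue is damaged, and the unstable product rearranges to a toxic isothiocyanate unless a specifier protein turns it into a nitrile or an epithionitrile. In Arabidopsis leaves the myrosinases TGG1 and TGG2 are kept in myrosin cells along the veins and, for TGG1, in guard cells, while PEN2 hydrolyses indolic glucosinolates in living cells under fungal attack. Transcripts of 10 genes of this breakdown step were followed: the nitrile-specifier genes NSP1 (AT3G16400), NSP2 (AT2G33070), NSP3 (AT3G16390), NSP4 (AT3G16410) and NSP5 (AT5G48180), the epithiospecifier gene ESP (AT1G54040), its modifier ESM1 (AT3G14210), the myrosinase genes TGG1 (AT5G26000) and TGG2 (AT5G25980), and PEN2 (AT2G44490). All 10 were measured, among 26716 genes with a probe, and all 10 were among the 22102 genes tested. They were listed by function but also chosen by a rule that reads the processed signals of the same 8 arrays, so their values are a description and no p-value is attached to them.

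The arrays were single-colour Agilent arrays hybridised with RNA of Arabidopsis thaliana seedlings of ecotype Col-0. All seedlings, controls included, were kept for 14 days on 1 µM brassinazole, which blocks brassinosteroid synthesis. The dominant mutant bil1-1D/bzr1-1D, whose altered BZR1 transcription factor is stabilised, was then exposed to 1 µM brassinolide, an active brassinosteroid, for 3 hours (n = 4), while wild-type Col-0 was exposed to DMSO for as long (n = 4). The question was which transcripts respond to the hormone. Genotype and hormone changed together, and each group lay on a slide and a scan of its own, so genotype, hormone, slide and scan cannot be told apart in any value below. Whether replicates were separate cultures, and how many seedlings each held, is not in the labels, so p-values below reflect array-to-array spread within a group, possibly technical in origin. RNA came from whole seedlings, in which fewer cells of a type and less RNA per cell cannot be told apart.

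The mutant slide was dimmer, with a 75th percentile of the processed signal of 3033 to 3821 against 4638 to 6153 on the wild-type slide. Each array was therefore scaled to its own 75th percentile, and a level is the log2 of the scaled signal, so that 0 is that percentile. A change is the mean level of the 4 mutant arrays minus that of the 4 wild-type arrays ± SE from limma, and the median change of all genes tested was 0.03. Across genes, pairs of arrays correlated at 0.9905 to 0.9965 inside a group and at 0.967 to 0.976 between groups; genes are not independent replicates. No spot was saturated. The 22 marker genes of guard cells, leaf mesophyll, root and phloem were well above background on all 8 arrays, and 7 of them rose, 5 fell and 10 did not pass the test. Of all genes tested, 30.2% rose and 25.7% fell.

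Read by the probe with the highest mean signal of each gene, 5 of the 10 genes were higher in the brassinolide-treated mutant and 5 lower, and the 5 lower ones were the NSP genes. NSP2 stood 28.8-fold lower and ESP 2.31-fold higher, and the remaining 8 genes lay within 1.67-fold. The median change of the 10 was -0.10. At least 1.5-fold differences were read for NSP2 and NSP3 downward, where 11.1% of all genes tested were as much lower, and for ESP upward, where 9.60% were as much higher. At least 2-fold, NSP2 was lower (5.19% of all genes) and ESP higher (3.18%). All 4 mutant arrays lay below all 4 wild-type arrays for 3 genes (24.0% of all genes did so) and above them for 4 genes (28.2%).

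**Figure D1:**
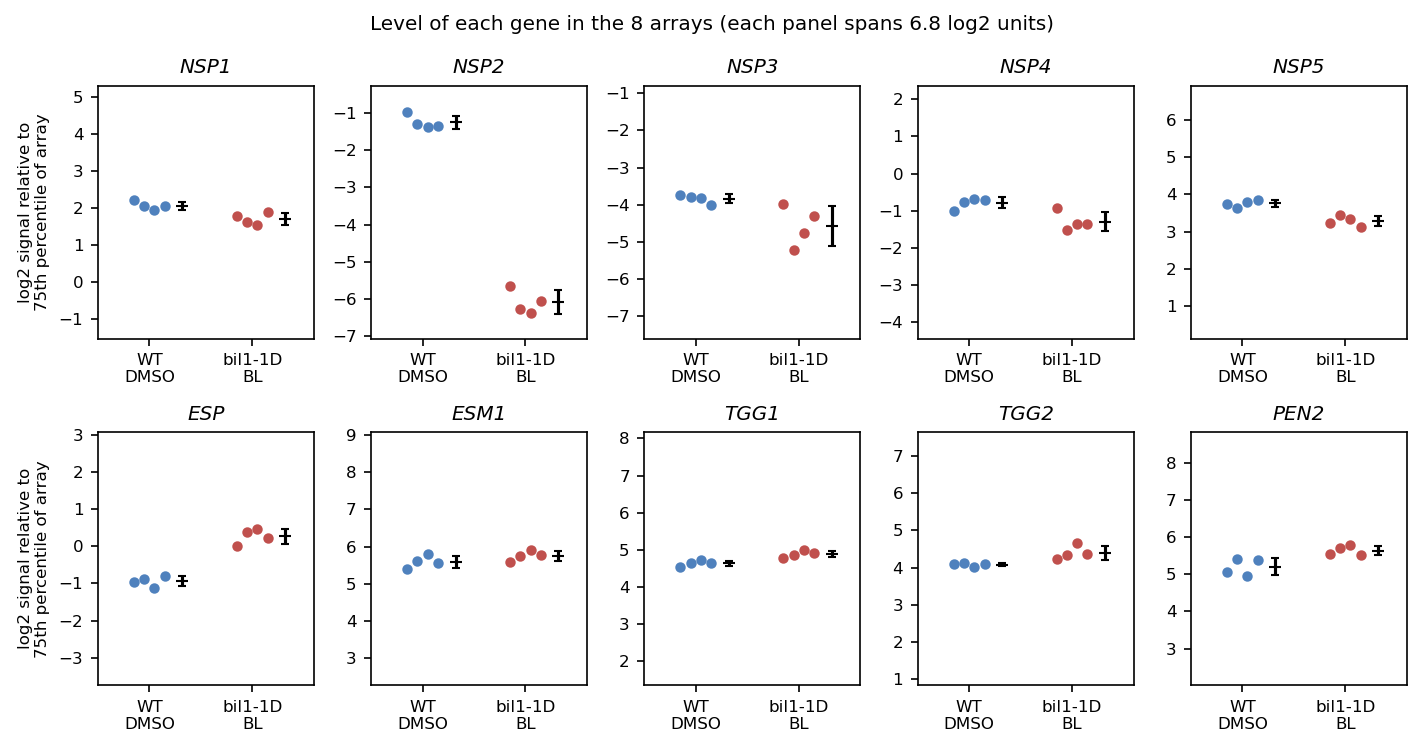
Level of the 10 genes on each array, as log2 signal relative to the array's 75th percentile (vertical axis, panels centred differently but equally tall in log2 units), in wild type with DMSO (blue) and bil1-1D with brassinolide (BL, red). Points are arrays, the black bar is the mean and its whiskers ± SD (n = 4). NSP2 drops from a mean of -1.24 to -6.09 and ESP lies higher in the mutant, at 0.27 against -0.94.

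The 5 NSP genes encode proteins with Kelch repeats that redirect the product of myrosinase towards simple nitriles, and their median change was -0.50. NSP2, known for expression in seeds, was read by 1 probe. Its level was -5.66, -6.27, -6.37 and -6.06 on mutant replicates 1 to 4 and -0.98, -1.28, -1.38 and -1.33 on wild-type replicates 1 to 4. The groups were far apart, with a change of -4.85 ± 0.16, or 28.8-fold. Counted from the largest fall, NSP2 was at rank 11 of the 22102 genes. On the linear scale its processed signal ran from 36.6 to 75.8 on the mutant arrays and from 1778 to 3118 on the wild-type arrays. The mutant signals were still well above background on all 4 arrays, at 6.97 to 8.70 times the spot's error as the scanner software gives it. The size of the fold differed with the background correction, at 15.1-fold under normexp (-3.92) and 21.4-fold under normexp fitted on negative-control spots (-4.42), and the cause was not tested.

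NSP5, whose gene lies apart from the chromosome 3 group of NSP genes, was read by 2 probes. On the probe with the higher signal, levels were 3.22, 3.45, 3.33 and 3.13 on the mutant arrays and 3.75, 3.63, 3.81 and 3.84 on the wild-type arrays. These did not overlap, and the change was -0.47 ± 0.08, or 1.39-fold lower. The other NSP5 probe gave -0.80 ± 0.11, also without overlap.

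NSP1, described as the main nitrile-specifier of rosette leaves, was read by 4 probes, all lower on every mutant array than on any wild-type array. The representing probe gave 1.78, 1.62, 1.54 and 1.89 in the mutant and 2.21, 2.05, 1.95 and 2.07 in the wild type, a change of -0.36 ± 0.09. The other 3 probes gave -0.74 ± 0.11, -0.30 ± 0.11 and -1.08 ± 0.19, the last from a dim probe that was well above background on 3 of the 4 mutant arrays. The probes thus shared the direction, and their sizes ranged from -0.30 to -1.08.

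NSP3 and NSP4 were each read by 1 probe, and in both the groups overlapped. NSP3 levels were -3.98, -5.22, -4.77 and -4.31 on the mutant arrays and -3.73, -3.78, -3.81 and -4.02 on the wild-type arrays, a change of -0.74 ± 0.24. The mutant arrays were spread more widely (SD 0.54, n = 4) than the wild-type arrays (SD 0.12, n = 4), and without mutant replicate 2 the change was -0.52, under 1.5-fold. With normexp it was -1.48, or 2.78-fold. Under normexp, however, 6725 of all 22102 genes were at least 1.5-fold lower, against 2464 without it. NSP3 was dim, at the 16.3th percentile of mean level. NSP4 levels were -0.93, -1.52, -1.37 and -1.35 in the mutant and -1.01, -0.77, -0.68 and -0.71 in the wild type, with a change of -0.50 ± 0.13, and mutant replicate 1 was the array that reached into the wild-type range.

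ESP encodes the protein that forms epithionitriles and nitriles in place of isothiocyanates, and accession Col-0 is known for little ESP activity. Levels on the representing probe were -0.0009, 0.39, 0.46 and 0.23 on the mutant arrays and -0.96, -0.87, -1.11 and -0.81 on the wild-type arrays. Every mutant array was higher, and the change was 1.21 ± 0.11, or 2.31-fold. The other 2 ESP probes gave 1.17 ± 0.10 and 1.07 ± 0.09, both without overlap. Over the 20 alternative settings, omissions of arrays included, the ESP change stayed between 1.07 and 1.297.

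ESM1 encodes a GDSL-type protein that favours isothiocyanate formation over nitriles, the opposite outcome to ESP. Its levels were 5.58, 5.76, 5.90 and 5.77 on the mutant arrays and 5.39, 5.62, 5.79 and 5.54 on the wild-type arrays. The groups overlapped, and the change of 0.17 ± 0.10 was within the range of either group. Its sign depended on the scaling. Before scaling, the processed signal was 181680 to 188637 on the mutant arrays and higher, at 248263 to 258804, on the wild-type arrays. A second, dim ESM1 probe gave 0.83 ± 0.26, also with overlap.

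TGG1, the most abundant leaf myrosinase, was read by 3 probes that disagreed in direction. The representing probe gave 4.78, 4.86, 4.99 and 4.90 on the mutant arrays and 4.53, 4.65, 4.71 and 4.64 on the wild-type arrays, a change of 0.25 ± 0.06 with every mutant array higher. Before scaling, its processed signal was lower on the mutant arrays, at 96553 to 105118 against 121612 to 142225 on the wild-type arrays. The second probe gave 1.87, 1.98, 1.96 and 2.01 in the mutant and 2.26, 2.20, 2.20 and 2.16 in the wild type, a change of -0.25 ± 0.05 with every mutant array lower. The third gave -0.32 ± 0.05, again with every mutant array lower. The mean of the 3 probes was -0.11, so no direction can be given for the TGG1 transcript. Of 7 guard-cell marker genes 3 rose, 2 fell and 2 did not pass, with a summed scaled signal of 4.77 to 6.52 on the mutant arrays and 4.94 to 7.76 on the wild-type arrays. GC1, which did not pass (-0.11 ± 0.20, adjusted p = 0.671), supplied most of that sum on every array, so the sum says little of the other 6 markers. Their part in the TGG1 values was not tested.

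TGG2, a neighbour of TGG1 on chromosome 5 with overlapping function, was read by 1 probe. Levels were 4.24, 4.33, 4.66 and 4.36 on the mutant arrays and 4.08, 4.13, 4.01 and 4.08 on the wild-type arrays. The groups did not overlap, and the change was 0.32 ± 0.09, or 1.25-fold higher. Among the alternatives the TGG2 change ran from 0.20 ± 0.21 under spike-in scaling to 0.54 ± 0.08 in the authors' value table. TGG1 and TGG2 are close copies, and signal shared between their probes was not tested. The 4 phloem genes, which mark the tissue next to the myrosin cells, gave 1 rise, 1 fall and 2 that did not pass. SWEET12 rose (0.94 ± 0.18, adjusted p = 0.00256) and APL fell (-0.26 ± 0.05, adjusted p = 0.00257). Summed scaled signals of the 4 were 7.87 to 9.47 in the mutant and 6.91 to 9.27 in the wild type. SWEET11, which did not pass (0.18 ± 0.09, adjusted p = 0.104), supplied most of that sum on every array, so the sum says little of the other markers.

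PEN2, the atypical myrosinase of the inducible indolic branch, was at 5.54, 5.70, 5.78 and 5.53 on the mutant arrays and at 5.06, 5.40, 4.96 and 5.39 on the wild-type arrays. The groups were close without overlapping, and the change was 0.44 ± 0.12, or 1.35-fold higher. In the authors' value table the PEN2 change was 0.73, the largest of the alternatives. The smallest was 0.32 ± 0.21, under spike-in scaling.

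**Figure D2:**
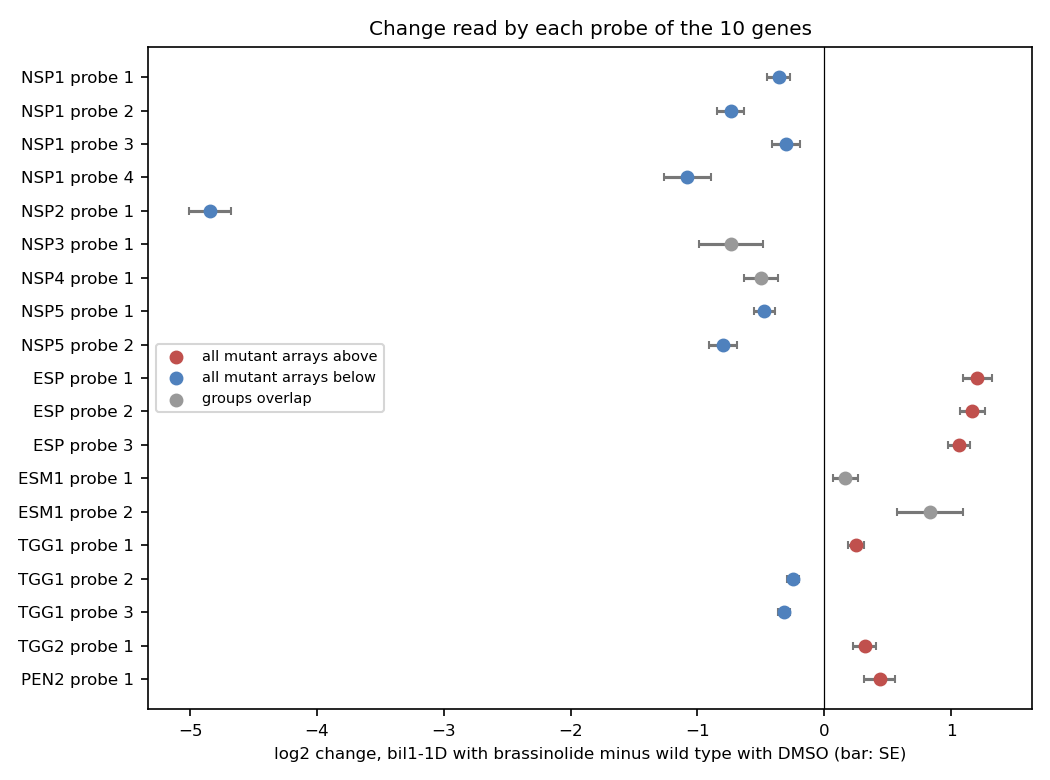
Log2 change of bil1-1D with brassinolide over wild type with DMSO (horizontal axis, bar: SE) for each of the 19 probes of the 10 genes, numbered within a gene from the probe with the highest mean signal. The probes of NSP1, NSP5, ESP and ESM1 share a direction within each gene, while those of TGG1 fall on both sides of 0.

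Across the 19 probes, 9 had every mutant array below the wild-type arrays, 6 had every mutant array above, and 4 overlapped. Several of these probes read the same gene, so they are not independent, and no share over all probes is given. Counted by gene on the representing probe, 3 of the 10 lay below without overlap and 4 above, against 24.0% and 28.2% of all genes tested. The 4 include TGG1, whose other probes lay below without overlap. Probe sequences were not used here, so cross-hybridisation between the NSP copies, or between TGG1 and TGG2, was not tested. The place of the 10 genes among all genes is drawn in the histogram of changes. NSP2 lies in its lower tail, NSP3 at the 8.18th percentile of change and ESP at the 98.0th, and the other 7 genes between the 13.4th (NSP4) and the 85.1st (PEN2).

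**Figure D3:**
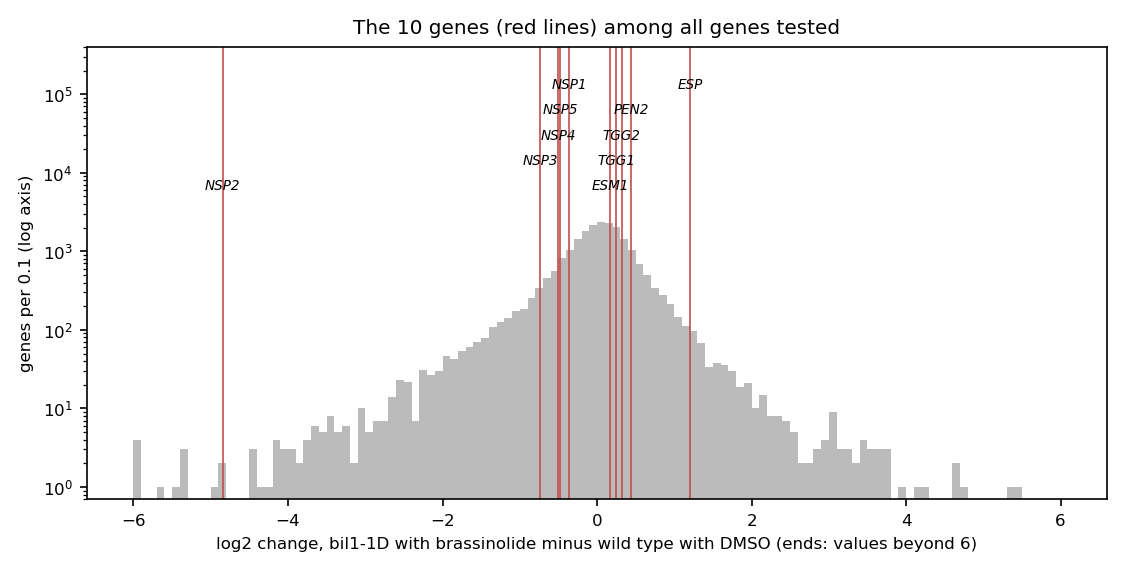
Histogram of the log2 change of all 22102 genes tested (horizontal axis, mutant with brassinolide minus wild type with DMSO; vertical axis, genes per bin on a log scale), with the 10 genes as red lines. NSP2 at -4.85 and ESP at 1.21 stand away from the other 8, which lie between -0.74 and 0.44.

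The genes whose 8 levels most resembled those of NSP2 were sought among the 20957 genes that every array detected, by the Euclidean distance of levels centred on each gene's mean. They were CYP90D1, a cytochrome P450 gene of brassinosteroid synthesis (distance 0.60, change -4.84 ± 0.11), RTFL1, a gene of the small ROTUNDIFOLIA-like peptides (0.62, change -4.91 ± 0.16), and AT5G67620 (0.92, change -4.32 ± 0.14). Those nearest to ESP were AT5G11000 (distance 0.30, change 1.15 ± 0.07), WRKY41, a transcription factor gene (0.30, change 1.19 ± 0.14), and AT5G63180 (0.32, change 1.14 ± 0.08). With only 2 groups of arrays, this likeness rests mostly on the size of the group difference.

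NSP3, NSP1 and NSP4 lie side by side on chromosome 3 at the start of a run of jacalin-type lectin genes that ends at JAL35 and holds 10 protein-coding genes, 9 of which were tested. The run was looked at after its values had been seen. All 9 were lower in the mutant, by a median of -0.50 on the log2 scale, and 5 of them did so without overlap between the groups. Over all genes tested, 10248 of 22102 were lower, and 24.0% lay below without overlap. Outside the 3 NSP genes, 5 fell past limma's threshold, as did 25.7% of all genes tested, and JAL32 did not (-0.11 ± 0.19, adjusted p = 0.63). JAL33 fell by 0.79 on the log2 scale (SE 0.07, adjusted p = 7.23e-05), JAL31 by 0.58 (SE 0.11, adjusted p = 0.00225), JAL35, also known as the jasmonate-responsive gene JR1, by 0.50 (SE 0.12, adjusted p = 0.00984), JAL34 by 0.45 (SE 0.13, adjusted p = 0.0202) and PBP1, a lectin that binds the root glucosidase PYK10, by 0.19 (SE 0.05, adjusted p = 0.0106). The tested genes just beyond each end, PAB6 (0.10 ± 0.38, adjusted p = 0.832) and MPPalpha (-0.09 ± 0.07, adjusted p = 0.259), did not pass. Of the genes next to these, AT3G16370 (1.27 ± 0.06, adjusted p = 2.82e-06) and IQD26 (0.51 ± 0.09, adjusted p = 0.00227) rose. AHP4, the gene before AT3G16370, rose by 1.51 (SE 0.21, adjusted p = 0.000601). PAP1, the gene after IQD26, fell by 1.43 (SE 0.06, adjusted p = 2.72e-06), more than any tested gene of the run. Neighbouring copies may share probe signal, which was not tested.

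**Figure D4:**
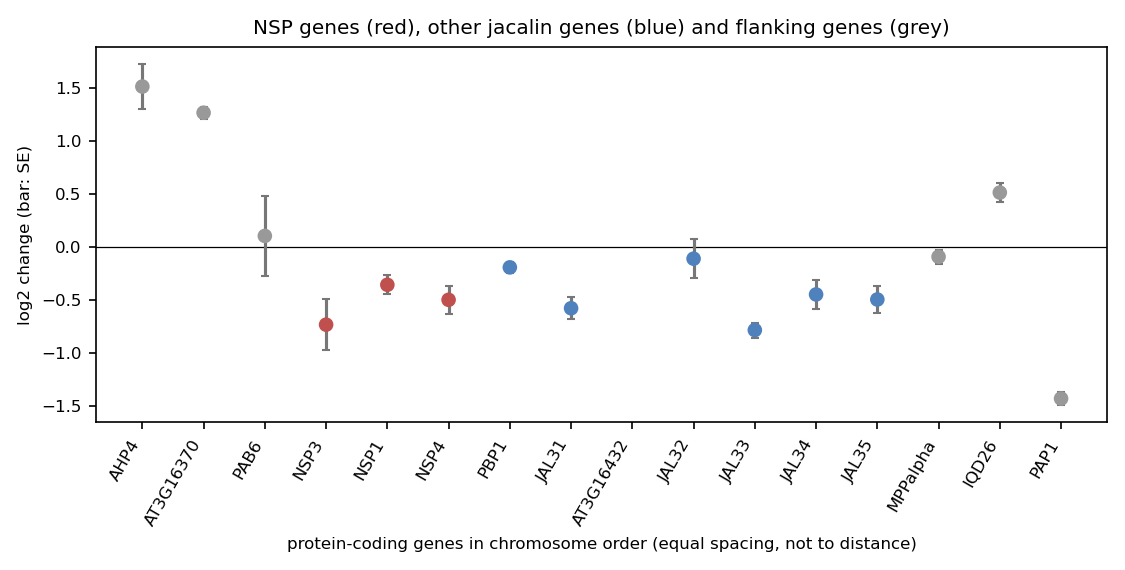
Log2 change (vertical axis, bar: SE) of the genes from AHP4 to PAP1 in their order on chromosome 3, equally spaced, with NSP3, NSP1 and NSP4 in red, the other lectin genes in blue and flanking genes in grey. AT3G16432 was not tested. All 9 tested genes from NSP3 to JAL35 lie below 0, from -0.11 to -0.79.

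ESP lies on chromosome 1 beside a row of genes for GDSL-type proteins, to which ESM1 is related. Of these, GLIP3 fell (-0.50 ± 0.16, adjusted p = 0.0318), while GLL22 (-0.33 ± 0.14, adjusted p = 0.0809), GLL23 (0.16 ± 0.12, adjusted p = 0.29), AT1G54020 (-0.22 ± 0.34, adjusted p = 0.61) and MVP1 (-0.18 ± 0.08, adjusted p = 0.0814) did not pass the test. The gene on the other side of ESP, AT1G54050, did not pass either (0.15 ± 0.24, adjusted p = 0.612). None of these neighbours of ESP was called in the direction of its change.

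Further genes around glucosinolate breakdown were followed in 4 lists of 61 genes in all, of which 56 were tested. By limma with Benjamini-Hochberg adjustment over all genes, 10 rose, 17 fell and 29 did not pass, or 17.9% and 30.4% of those tested. Over all genes 30.2% rose and 25.7% fell. At least 2-fold, 2 rose and 5 fell, and the median change was -0.14. Counts depended on scaling and arrays, with 2 rises and 11 falls under spike-in scaling, 5 and 16 under normexp, and 5 and 13 without mutant replicate 4 and wild-type replicates 1 and 2, 3 arrays whose negative controls were out of range per the file headers. Under spike-in scaling the median of all genes moved by -0.12, and 32.045% of all calls were rises against 54.1% with the 75th percentile and 43.9% with normexp, which moved that median by -0.20. Of the 10 rises in the lists, BGLU30 and AT3G14225 kept their call under spike-in scaling, and the other 8 had adjusted p from 0.232 to 0.689.

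The first list held 19 other beta-glucosidase genes, the remaining TGG relatives and the BGLU18 to BGLU33 group to which PEN2 belongs, several of them atypical myrosinases. Of 14 tested, 3 rose, 4 fell and 7 did not pass (median -0.14). BGLU27 fell from levels of -0.81, -1.84, -2.36 and -0.90 on the wild-type arrays to -3.59, -2.49, -3.89 and -3.71 on the mutant arrays (change -1.94 ± 0.43, adjusted p = 0.00541). BGLU22 (-1.51 ± 0.29, adjusted p = 0.00301) and BGLU21 (-1.20 ± 0.39, adjusted p = 0.0309), which encode root glucosidases of ER bodies, fell as well. BGLU21 missed the threshold when any 1 of 5 arrays was omitted, mutant replicates 2 and 3 and wild-type replicates 1, 2 and 4, with adjusted p up to 0.0798, and with normexp (adjusted p = 0.079). BGLU23, also called PYK10 and the main ER-body glucosidase of roots, fell by 0.43 (SE 0.08, adjusted p = 0.00217).

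Upward in that list, the dark-inducible gene BGLU30 rose by 1.23 ± 0.23 (adjusted p = 0.00229), but stood at -0.11 (adjusted p = 0.842) with normexp. BGLU33 rose by 0.39 ± 0.08 (adjusted p = 0.00333) and TGG3 by 0.34 ± 0.06 (adjusted p = 0.00178), but neither was called under spike-in scaling (adjusted p = 0.454 and 0.524), and TGG3 stood at -0.47 (adjusted p = 0.202) with normexp. The root myrosinase genes TGG4 (-0.34 ± 0.22, adjusted p = 0.223) and TGG5 (0.05 ± 0.26, adjusted p = 0.875) did not pass. Without the 3 arrays with outlying negative controls BGLU27 (-1.69, adjusted p = 0.0809), BGLU21 (-1.47, adjusted p = 0.0688) and BGLU30 (1.08, adjusted p = 0.0531) lost their calls. Of 7 root marker genes 1 rose, 1 fell and 5 did not pass, and their summed scaled signal was 3.103 to 4.78 in the mutant and 2.57 to 3.72 in the wild type. Within the mutant group, replicates 2 and 3 were lowest for BGLU21 (-0.53 and -0.02, against 1.09 and 1.33 in replicates 1 and 4) and for BGLU22. The same replicates were lowest for the root-hair genes COBL9 (-2.30 and -1.83, against -1.14 and -1.20) and EXPA7 (-2.71 and -2.26, against -1.48 and -1.34) and for the endodermis gene CASP1 (0.06 and 0.39, against 0.75 and 1.08). They were also lowest for IRT1 (-1.76 and -1.66, against -0.84 and -1.46). Between the groups IRT1 did not pass (2.29 ± 1.07, adjusted p = 0.101). Every mutant array was above the wild-type arrays for it, and wild-type replicate 1 was at -7.27. The rest of the root markers went otherwise. NRT2.1 was lowest in replicates 4 and 2 (-0.999 and -0.86) and highest in replicate 3 (-0.16). SCR was lowest in replicates 1 and 2, and WOX5 in replicates 2 and 4. Read by their representing probes, the members NSP1, NSP2, NSP3 and NSP4 were also lowest in mutant replicates 2 and 3 within the mutant group. The other members, NSP5, ESP, ESM1, TGG1, TGG2 and PEN2, were not. Every other tested gene of the lectin run on chromosome 3 was lowest in these replicates too. The part of the root markers in the falls of the root glucosidases, the NSP genes and the lectin genes was not tested.

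The second list held 16 lectin and GDSL-type relatives, the myrosinase-binding proteins MBP1 and MBP2 among them. Of 16 tested, 1 rose, 6 fell and 9 did not pass (median -0.21), and 5 of the 6 falls were the lectin genes of the run on chromosome 3. The sixth, JAL22, a lectin gene on another chromosome, fell from 1.59, 1.73, 1.59 and 1.83 in the wild type to 0.71, 0.60, 0.32 and 0.70 in the mutant (-1.10 ± 0.10, adjusted p = 7.57e-05). The rise was that of AT3G14225, the GDSL gene GLIP4 beside ESM1 (1.38 ± 0.17, adjusted p = 0.000287), which stood at -0.78 (adjusted p = 0.309) with normexp. MBP1 (-0.16 ± 0.29, adjusted p = 0.654) and MBP2 (-0.32 ± 0.24, adjusted p = 0.296) did not pass.

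The third list held 13 genes that prepare the substrate of PEN2 or handle products of breakdown. Of these 3 rose, 4 fell and 6 did not pass (median -0.08). NIT4, a nitrilase that detoxifies the cyanide adduct beta-cyanoalanine, was at 2.57, 2.19, 1.99 and 2.86 in the wild type and at -0.66, -0.65, -0.55 and -0.89 in the mutant. It fell 8.50-fold (-3.09 ± 0.18, adjusted p = 9.71e-06). NIT1, a nitrilase that accepts indole-3-acetonitrile and nitriles from glucosinolates, fell by 0.88 (SE 0.13, adjusted p = 0.000657), and NIT3 by 0.38 (SE 0.10, adjusted p = 0.0117). NIT2 did not pass (-0.17 ± 0.21, adjusted p = 0.526). GSTU13, a glutathione transferase of the PEN2 pathway, fell by 0.41 (SE 0.06, adjusted p = 0.00097), though not past the threshold under spike-in scaling (adjusted p = 0.0811). The size depended on the probe, since the mean of the GSTU13 probes gave -1.075 (adjusted p = 1.58e-05).

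Among genes that act with PEN2, PEN3, an ABC transporter of the same defence pathway, rose by 0.32 ± 0.09 (adjusted p = 0.0138), and the phytochelatin synthase gene PCS1 rose by 0.50 ± 0.09 (adjusted p = 0.00264). PCS1 levels were 2.39, 2.62, 2.53 and 2.43 in the mutant and 2.18, 2.03, 1.76 and 1.98 in the wild type. PCS1 was not called with the mean of its probes (0.21, adjusted p = 0.135) or under spike-in scaling (adjusted p = 0.263). PEN3 was not called without the 3 arrays with outlying negative controls (adjusted p = 0.0506) or under spike-in scaling (adjusted p = 0.603). CYP81F2, the P450 gene that starts the conversion of indolic glucosinolates used by PEN2, did not pass (0.07 ± 0.25, adjusted p = 0.83), nor did the methyltransferase genes IGMT1 (0.12 ± 0.13, adjusted p = 0.453) and IGMT2 (-0.08 ± 0.19, adjusted p = 0.724). SDI1, a repressor of glucosinolate synthesis under sulfur shortage, rose by 0.55 ± 0.20 (adjusted p = 0.0456), a call that ended when any 1 of 6 arrays was omitted, mutant replicates 2, 3 and 4 and wild-type replicates 1, 2 and 3 (adjusted p up to 0.107).

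The fourth list held 13 genes of myrosin cells, ER bodies and MYC regulators, of which 3 rose, 3 fell and 7 did not pass (median 0.11). The falls were those of ER-body genes. NAI1, the bHLH factor required for ER bodies, fell by 0.60 (SE 0.12, adjusted p = 0.00336), NAI2, an ER-body component, by 0.58 (SE 0.12, adjusted p = 0.00397), and TSA1, its homologue, by 0.45 (SE 0.12, adjusted p = 0.0152). The mean of the NAI2 probes gave a larger fall, at -0.96 (adjusted p = 0.00016). TSA1 lost its call under spike-in scaling (adjusted p = 0.0821) and with normexp (adjusted p = 0.0583). The membrane proteins of the same bodies, MEB1 (0.11 ± 0.07, adjusted p = 0.227) and MEB2 (0.16 ± 0.10, adjusted p = 0.216), did not pass.

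FAMA, the bHLH factor required for both myrosin cells and guard cells, did not pass (-0.17 ± 0.08, adjusted p = 0.112), and its partner SCRM did not either (0.05 ± 0.07, adjusted p = 0.624). The trafficking genes SYP22 (0.33 ± 0.04, adjusted p = 0.000512) and VPS9A (0.29 ± 0.06, adjusted p = 0.00393), whose loss alters myrosin cells, rose by small amounts. Neither was called under spike-in scaling (adjusted p = 0.57 for SYP22 and 0.67 for VPS9A), nor was VPS9A without the 3 arrays with outlying negative controls (adjusted p = 0.0523). SCRM2 rose by 0.27 ± 0.10 (adjusted p = 0.0411), a call that also ended when any 1 of 6 arrays was omitted, mutant replicates 2, 3 and 4 and wild-type replicates 1, 2 and 4 (adjusted p up to 0.104). MYC2 (0.12 ± 0.16, adjusted p = 0.56), MYC3 (0.11 ± 0.09, adjusted p = 0.351) and MYC4 (-0.06 ± 0.05, adjusted p = 0.345), jasmonate regulators of glucosinolate genes, did not pass.

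**Figure D5:**
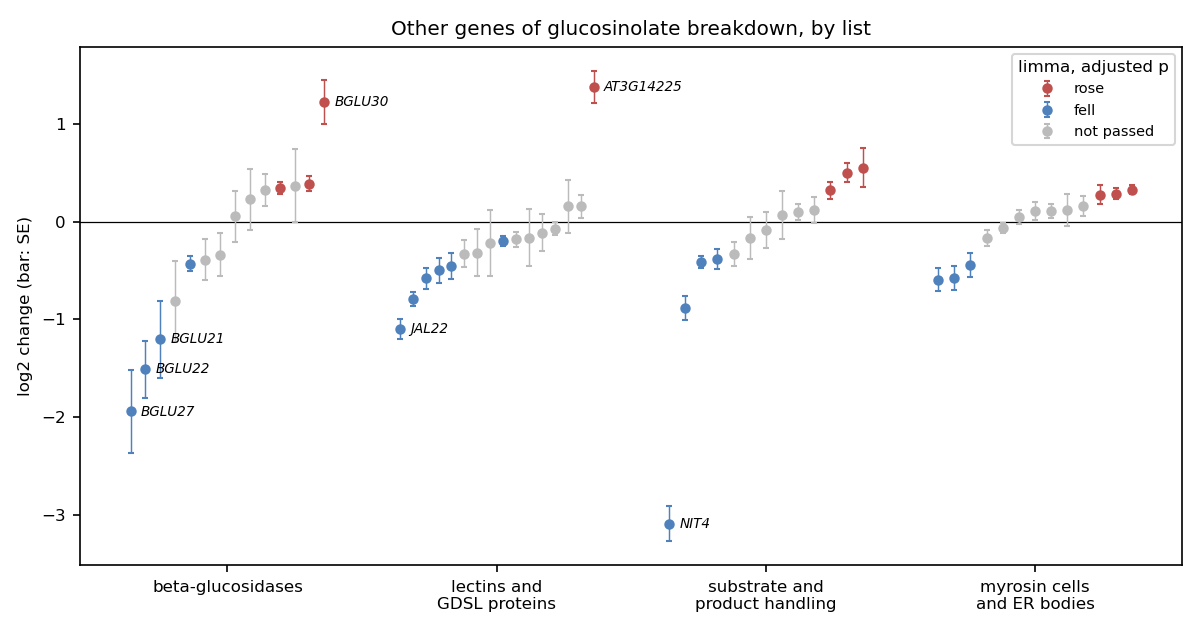
Log2 change (vertical axis, bar: SE) of the 56 tested genes of the 4 lists, sorted within each list, coloured by limma's call after adjustment over all genes. Rises are red, falls blue and genes that did not pass grey; NIT4 at -3.09 is the lowest of the 56.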

How the data were processed

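The deposited scanner files give linear spot intensity from Agilent Feature Extraction (11.5.1.1, array design 021169, build TAIR10, per the file headers; the submitters' processing notes name 9.1.3.1). The processed signal is background-subtracted and detrended, without normalization between arrays, per the file headers. Cy3 labelling started from 200 ng of RNA, per the labels' protocols. The authors' deposited value table is probably in natural log units (slope 0.966 to 1.02 against ln processed signal) and held the same set of values in every column (median -0.970), so it was quantile normalized; its centring stays unknown, and it served as an alternative.

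Probes were matched by accession to the RefSeq gene table (assembly TAIR10.1), 36163 of 43603 to 1 locus. After 93 outlier spots were left out, spots of a probe were averaged, divided by the array's 75th percentile, floored at 0.001 and log2 transformed; 49 values lost to outliers were filled with the group mean. A probe was tested if well above background on all arrays of a group, and the tested probe with the highest mean represented its gene. The comparison used limma 3.58.1 under R 4.3.3 (lmFit, eBayes, no covariates, Benjamini-Hochberg over 22102 genes, threshold 0.05), with Python 3.11.15 and pandas 2.3.3. Simulated data with 22102 genes held changes of 0.5, 1 and 2 (log2) in 67, 67 and 66 genes, with independent noise. The fit recovered 50.75%, 89.55% and 93.94% of them. In the data themselves 12354 genes were called, which makes the adjusted threshold less strict, so these rates need not hold there. The number of arrays limits the precision.

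The members and gene lists were chosen with earlier results of these data known. Named were all members, the 3 largest rises and 3 largest falls past the threshold of each list, and the 3 genes nearest to the member with the largest rise and fall; other genes named were chosen for their role or position, after their values were seen. Alternatives covered scaling, background, filter, probe choice, variance model, the replicate block and omitted arrays; normexp used median spot signals, since no mean signals were in the files used here. Same-numbered arrays had correlated deviations of -0.10, -0.28, 0.17 and 0.04, so the numbers were not treated as pairs. Nucleotide and protein sequences were not used here.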

Additional observations from a re-analysis of the deposited data

Results flagged for a closer look

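Among 64 groups of 4 arrays (32 named genes in each group), 1 held an array set apart from the rest by more than Dixon's 95% critical value, a screen that flags about 1 in 20 groups by chance. BGLU22 was at -0.35 on wild-type replicate 3, against 0.06 on the nearest of the other wild-type arrays (ratio 0.852).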

How the results depend on the processing

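The 10 genes kept the sign of their change under all 20 alternatives run, except TGG1, which turned to -0.11 with the mean of its probes. Members at least 1.5-fold lower numbered 2, against 4 with spike-in scaling, 4 with the mean of probes, 1 in the authors' value table and 1 to 3 on leaving out an array; those higher numbered 1, against 2 in the authors' value table and 1 on each omission of an array. Rises in the 4 lists numbered 10, against 2 with spike-in scaling, 5 with normexp, 5 without the 3 arrays with outlying negative controls and 8 to 10 on leaving out an array. Falls numbered 17, against 11 with spike-in scaling and 15 to 19 on leaving out an array. With normexp BGLU30 (-0.11), TGG3 (-0.47) and AT3G14225 (-0.78) turned sign; the cause was not tested. Of 440 values of 22 named list genes under the alternatives, 394 kept their direction and call, 43 lost the call and 3 turned sign. With the replicate block 8 list genes rose and 18 fell, and members stayed at 2 lower and 1 higher; PEN3 (adjusted p = 0.0563) and SDI1 (adjusted p = 0.0908) lost their calls. A slide block could not be fitted, since each slide holds 1 group. Over all genes, 6680 rose and 5674 fell, against 1409 and 2988 with spike-in scaling and 3985 and 5084 with normexp. At least 2-fold, 703 were higher and 1147 lower, against 247 and 4573 with normexp, 655 and 747 with normexp on negative controls, and 1293 and 1233 without a filter. Signal over error was lowest for the fourth NSP1 probe (from 4.26), the second ESM1 probe (from 6.06), NSP2 in the mutant (from 6.97) and the third ESP probe (from 7.22), whose values are the least precise in that sense.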
